A study of Mus musculus with 8 samples.

Results

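The genes described here are 94 genes whose transcripts were much more abundant in Trim28 knockout CD8+ T cells than in control cells. They were taken from 49490 listed genes by 3 conditions on the normalised read count, that is, the reads of a gene divided by the size factor of its library. The knockout mean was at least 30, the ratio of the knockout mean to the control mean was at least 4 after 1 was added to each mean, and both knockout values lay above both control values. Of 12629 genes with a knockout mean of at least 30, 103 met these conditions, or 0.816%, and the choice then left out 9 of them by name (Setdb1, Gbp2b, Yes1, Ctse, Ccr6, Tnfsf10, Ly6d, Ly6k and Fgf2). The same conditions turned round, with the control at least 4 times the knockout, were met by 151 genes. The 94 genes were thus chosen by their knockout and control values, so these values are given as a description, with no test. The tests of these 94 genes come from a second experiment, IL-2 blockade, whose libraries the choice did not use.

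TRIM28, also called KAP1, is a co-repressor that does not itself read a DNA sequence. KRAB zinc finger proteins bring it to DNA, where it gathers the histone methyltransferase SETDB1, HP1 proteins and the NuRD complex, and the nucleosomes there gain trimethylation of histone H3 lysine 9. It is known above all for silencing endogenous retroelements and genes that lie close to them. IL-2 is the growth factor that T cells secrete and take up after activation, and an antibody against it keeps it from its receptor.

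PolyA RNA had been sequenced from CD8+ T cells of mouse spleens and lymph nodes in 2 experiments. The first set 2 libraries of Trim28-/- cells, labelled TRIM28 knockout, against 2 libraries of Trim28fl/fl cells, labelled WT and called control here; all were activated in vitro. The second set 2 libraries of WT cells cultured with anti-IL-2 against 2 libraries of untreated WT cells, all kept for 3 days under stimulation through CD3 and CD28 antibodies. The driver of Trim28 deletion, the age of the mice, the length of activation in the first experiment, and whether the libraries of a group came from separate mice or cultures are not given in the sources used here. The p-values are thus a measure of the spread between libraries alone, and that spread may be technical.

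Trim28 itself stood at 415 and 458 normalised reads in the knockout libraries, against 4262 and 4323 in the control libraries. Reads per library numbered 13222831 to 13469789 in the knockout experiment and 16618750 to 17069569 in the blockade experiment. Of 8 CD8 T cell markers, 4 were called higher in knockout and 3 lower. Cd8a had 4945 and 5109 in knockout and 4154 and 4324 in control, whereas Cd8b1 had 2828 and 2922 in knockout and 4104 and 3915 in control. Cd4 stood at no more than 7.88, and the B cell gene Ms4a1 was listed at 0 in all 4 libraries. Other B cell markers held reads. Ighm had 2142 and 2119 in knockout, against 1565 and 1538 in control, and H2-Ab1 184 and 210 against 617 and 622. Of the 5 tested B cell markers, 1 was called higher, 3 lower and 1 not called. The summed level of 7 NK and innate lymphocyte markers was 1503 and 1495 in knockout, against 5435 and 5484 in control, and the 5 CD4 T cell markers summed to 5877 and 5792 against 6500 and 6657. Ctla4 alone made up most of the CD4 sum, with 5724 and 5622 in knockout and 5995 and 6133 in control. Of the 4 tested CD4 markers, 3 were called lower, among them Cd40lg (41.4 and 49.0 against 346 and 365). The other, Foxp3, was higher, as the choice required. In such bulk samples, fewer cells of a type and less RNA per cell cannot be told apart.

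The 94 genes spanned a wide range of levels. The knockout mean ran from 30.9 normalised reads to 3640, with a median of 87.0, while the control mean had a median of 11.7. In the 81 genes with reads in control, the ratio had a median of 5.69 and ranged from 4.05 to 85.2. It was at least 10 in 19 of them, between 5 and 10 in 34 and under 5 in 28. The other 13 genes were listed at 0 in control. Most of the genes were scarce: 55 had a knockout mean under 100, 40 had a control mean under 10, and 6 reached a knockout mean of 1000, namely Apbb1ip, Lad1, Cdc25b, Nrgn, Otud1 and Acadm. The knockout libraries lay within 1.2 times of each other for 77 genes and differed by at least 1.5 times for 2, the unnamed transcript Gm29253 (80.7 and 22.5) and the long non-coding RNA Snhg14 (123 and 242). In CPM per kilobase of exon (CPM being reads scaled to one library total), Nrgn was the most abundant in knockout cells at 81.4 (control 14), followed by Lad1 at 63.0, Cd70 at 51.1 and Otud1 at 40.6.

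**Figure D1:**
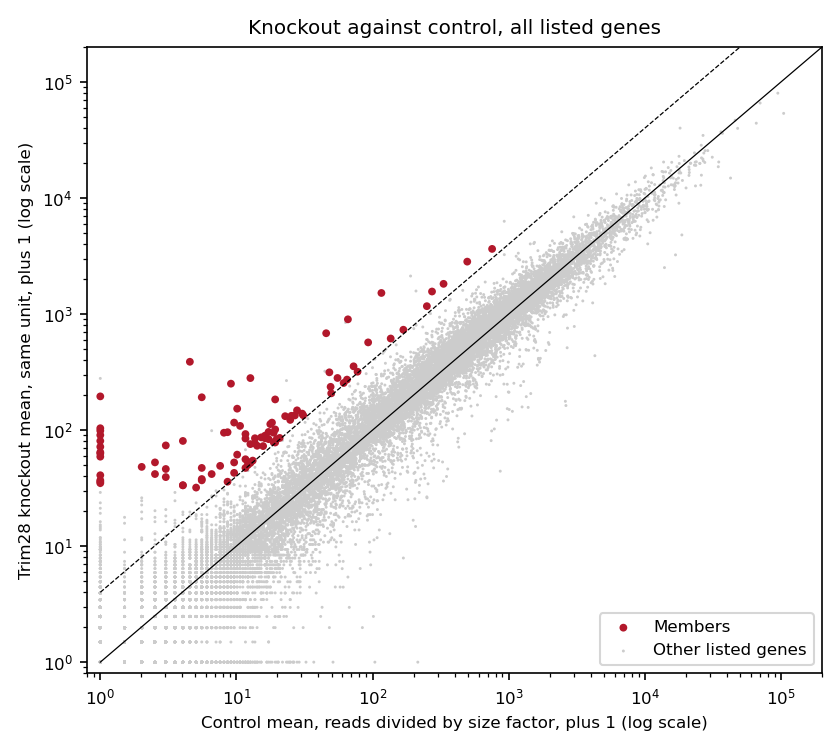
Mean normalised read count plus 1 in Trim28 knockout libraries (vertical, log scale) against control libraries (horizontal, log scale), 1 point per listed gene, n = 2 libraries per group. The 94 chosen genes (red) lie above the dashed line of a ratio of 4, as the choice requires, and most sit at the low end of the control axis; the solid line marks equal values, and grey points above the dashed line miss another condition or were left out by name.

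The genes nearest to the thresholds show how gradual the border is. Just inside the ratio lay Olfr1372-ps1 at 4.05, Ighd at 4.06 and Sox12 at 4.10, and just outside it Dctd at 3.97, Nars2 at 3.93 and Rpl34-ps2 at 3.91. Just inside the level lay C230038L03Rik with a knockout mean of 30.9, Gm10461 with 32.4 and Dnhd1 with 32.4, and just outside it Cfap53 with 29.95, Gm20033 with 29.0 and Myo5b with 28.0. A further 3 genes passed both levels but had overlapping libraries.

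A listed 0 need not mean absence in these files: Ptprcap and Raver1 were listed at 0 in all 4 blockade libraries while they held at least 873 reads in every library of the other experiment, and Mia2 was listed at 0 throughout the knockout experiment while it held at least 3296 in every blockade library. In the knockout experiment, 7 genes were listed at 0 in 1 knockout library and at 50 or more in the other, and 8 genes did so between the control libraries. No fold is therefore given for the 13 genes with both control libraries listed at 0. Among all listed genes, 16 with a knockout mean of at least 30 were at 0 in both control libraries, and 5 with a control mean of at least 30 were at 0 in both knockout libraries.

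The sequences before the start of 6 of the genes are shown because these genes mark the 2 ends of the set. Otud1, Lad1 and Chst3 were among the most abundant in knockout cells and were also higher with anti-IL-2, while Ak7, Dnah12 and Tdrd9 were listed at 0 in control cells. Each sequence is the 250 bases before the gene's RefSeq start on GRCm38.p6, written 5′ to 3′ on the strand of the gene, with matches to the searched motifs in capitals. They lie at chr2:19657481-19657730 (plus strand, Otud1), chr1:135818348-135818597 (plus, Lad1), chr10:60219261-60219510 (minus, Chst3), chr12:105705732-105705981 (plus, Ak7), chr14:26691304-26691553 (plus, Dnah12) and chr12:111971309-111971558 (plus, Tdrd9).
Otud1: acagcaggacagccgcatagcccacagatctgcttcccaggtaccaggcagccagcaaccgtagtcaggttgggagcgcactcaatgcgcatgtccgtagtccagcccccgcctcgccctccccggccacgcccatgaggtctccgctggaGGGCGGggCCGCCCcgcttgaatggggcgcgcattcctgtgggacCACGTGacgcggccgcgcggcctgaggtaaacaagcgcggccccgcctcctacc
Lad1: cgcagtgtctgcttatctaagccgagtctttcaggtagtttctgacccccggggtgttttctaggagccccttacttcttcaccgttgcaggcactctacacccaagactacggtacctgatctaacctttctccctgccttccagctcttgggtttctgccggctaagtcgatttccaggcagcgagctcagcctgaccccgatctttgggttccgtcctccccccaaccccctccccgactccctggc
Chst3: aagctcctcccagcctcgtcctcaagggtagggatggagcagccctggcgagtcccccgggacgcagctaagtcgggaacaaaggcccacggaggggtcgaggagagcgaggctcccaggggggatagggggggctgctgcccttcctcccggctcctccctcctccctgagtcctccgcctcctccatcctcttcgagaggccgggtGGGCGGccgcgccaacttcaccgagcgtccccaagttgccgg
Ak7: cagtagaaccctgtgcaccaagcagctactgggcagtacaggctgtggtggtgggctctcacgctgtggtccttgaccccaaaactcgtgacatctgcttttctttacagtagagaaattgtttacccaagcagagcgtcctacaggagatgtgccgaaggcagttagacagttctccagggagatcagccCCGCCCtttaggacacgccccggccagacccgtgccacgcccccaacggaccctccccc
Dnah12: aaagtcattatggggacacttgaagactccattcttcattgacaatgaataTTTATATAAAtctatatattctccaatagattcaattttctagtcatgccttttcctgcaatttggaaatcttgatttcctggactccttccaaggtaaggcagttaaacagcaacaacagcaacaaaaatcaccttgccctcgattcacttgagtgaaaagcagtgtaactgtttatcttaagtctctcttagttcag
Tdrd9: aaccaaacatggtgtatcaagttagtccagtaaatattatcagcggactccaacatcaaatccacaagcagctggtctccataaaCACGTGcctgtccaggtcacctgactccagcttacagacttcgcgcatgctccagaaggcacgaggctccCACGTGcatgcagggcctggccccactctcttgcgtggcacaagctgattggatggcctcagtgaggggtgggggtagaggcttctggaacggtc
The capitals in Otud1 are GC boxes (CCGCCC, here also read as GGGCGG from the other strand) and the E-box CACGTG, those in Chst3 and Ak7 are GC boxes, those in Dnah12 are overlapping TATA boxes (TATAAA, on either strand), and those in Tdrd9 are a pair of CACGTG E-boxes; Lad1 had no match. The Otud1 and Chst3 promoters are rich in CpG dinucleotides, with 24 and 18 in 250 bases, whereas Lad1 had 11, Ak7 had 10, Tdrd9 had 8 and Dnah12 had 1.

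RefSeq promoters were found for 61 of the 94 genes. Their 250 bases held a median of 10 CpG dinucleotides, against 17 in 9231 genes with reads in the knockout experiment and 6 in all 27025 genes of the table. At most 5 CpG were present in 29.5% of the 61, in 11.3% of genes with reads and in 47.4% of all genes. The 8 promoters of genes listed at 0 in control had a median of 6.5. CpG density thus lay between that of transcribed genes and that of all genes, which also holds for the GC content, with a median of 56% in the 61, 61.2% in genes with reads and 52.8% in all.

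Motif matches, counted on either strand, followed no common order. A TATA box (TATAAA) was present in 18.0% of the 61 promoters, 7.64% of genes with reads and 14.3% of all genes, and the GC box CCGCCC in 45.9%, 63.7% and 35.4% of the same sets. The STAT motif TTCNNNGAA was present in 9.84%, 7.27% and 8.13%, and the AP-1 motif (TGACTCA or TGAGTCA) in 8.20%, 3.80% and 5.16%. The remaining motifs gave 8.20%, 9.94% and 6.86% for CACGTG, 8.20%, 5.63% and 6.76% for the STAT motif with a longer spacer, 18.0%, 22.3% and 11.8% for GGGGCGGGG, which overlaps the GC box, 0 of 61, 3.23% and 1.77% for TGACGTCA, and 1.64%, 4.0% and 5.08% for AACCACA. Of the 61 promoters, 11 held the TATA box, 6 and 5 the STAT motifs, 5 AP-1, 1 AACCACA and 0 TGACGTCA. A few matches move shares of such small counts, so no excess or lack is read from them. These are counts of letters and were not tested.

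The blockade experiment gave an independent reading of the same genes. Its table listed 88 of them, and 63 reached the filter, 10 or more normalised reads in 2 or more libraries; the other 25 had no value above 14.5, and RP23-337J18.2, RP23-392I13.15, Gm43673, RP23-325D10.3, Gm45519 and RP23-83G5.2 were not in the table. With limma on log2(value + 1), 38 of the 63 rose with anti-IL-2 at an adjusted p under 0.05, or 60.3%, against 31.4% of all 13978 tested genes. Another 10 fell, or 15.9%, against 28.9% of all, and 15 were not called. Increases of at least 2-fold were called in 28 of the 63, against 4.86% of all tested genes, and decreases of that size in 8, against 10%. Both anti-IL-2 libraries lay above both untreated libraries in 44 of the 63, against 41.1% of all 13978 tested genes. They lay below them in 12 of the 63, against 38.2% of all, and the groups overlapped in 7. The median log2 fold change was 0.84 in the 63 and 0.018 in all tested genes. Marker genes differed in the same libraries. The 7 NK and innate lymphocyte markers summed to 2410 and 2338 with anti-IL-2 and 8525 and 8376 in untreated cells, with 4 of 5 tested lower and 1 higher. Of the 8 CD8 T cell markers 6 were lower and 0 higher in limma, with sums of 47389 and 49328 with anti-IL-2 and 58287 and 58217 in untreated cells. The part of such differences in the counts was not tested.

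These counts describe the genes that passed the filter, not all 94. Of the 63, 53 passed in both groups. Another 4 passed through the anti-IL-2 libraries alone (Ak7, Gm42752, Apcdd1 and Olfr1372-ps1). A further 6 passed through the untreated libraries alone (Foxp3, Igsf23, Vmn2r96, Ism1, C230038L03Rik and Pgpep1l). Thus 6 of the 10 that fell passed only through the group in which they were higher. The same holds for Gm42752, Apcdd1 and Olfr1372-ps1 among the genes that rose, while Ak7 was not called. Without the filter, 32 of 82 genes rose, against 12.2% of all, and 5 fell, against 11.8%. The number that fell was 2 when either untreated library was left out, where 57 of the genes reached the filter and the lone untreated library was assumed to vary like the other group. It was 5 with DESeq2.

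**Figure D2:**
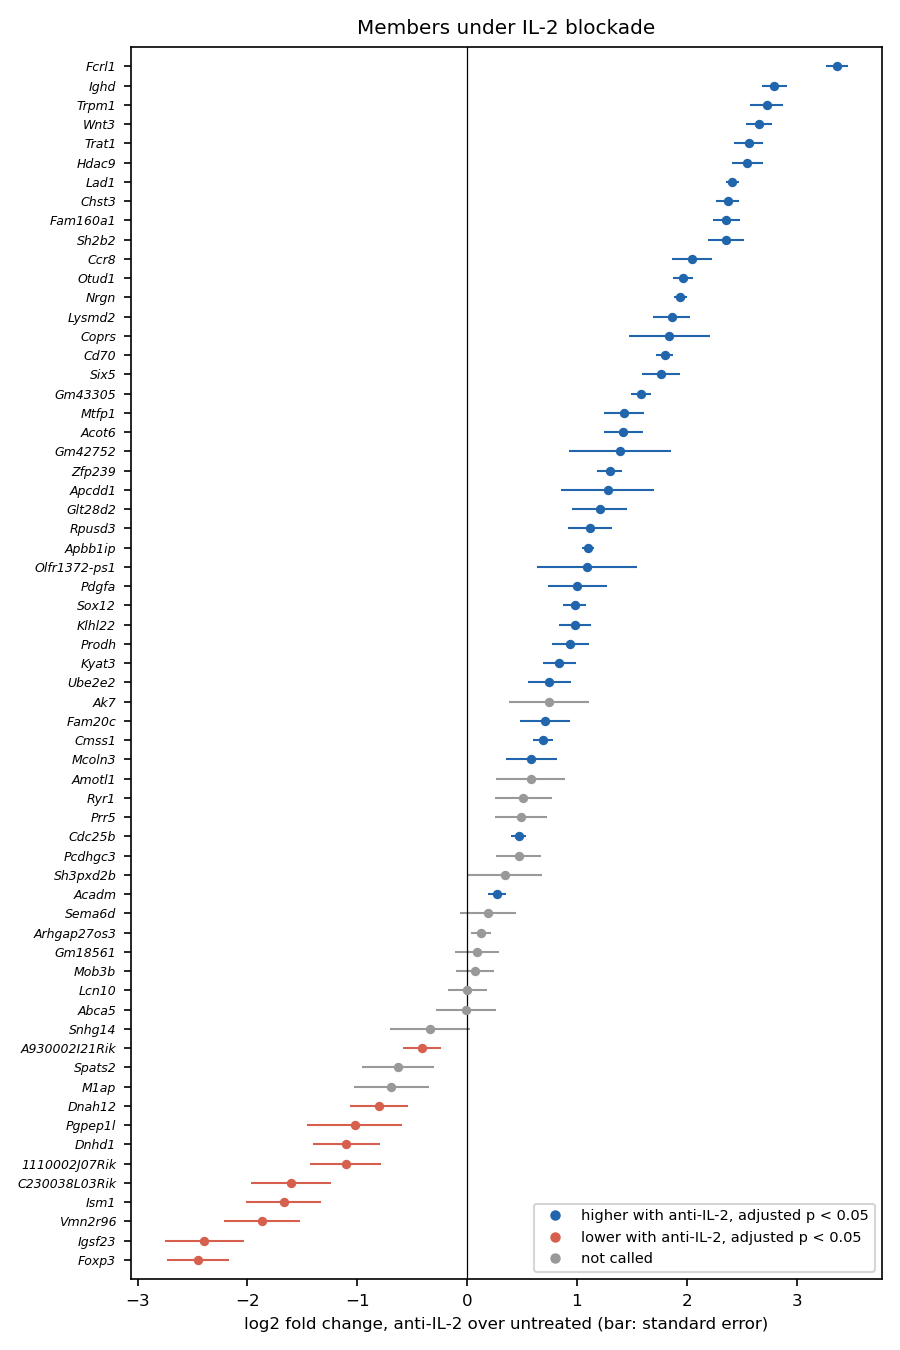
Log2 fold change (anti-IL-2 over untreated, on the log2(value + 1) scale, horizontal) of the 63 tested genes, with bars for the standard error, n = 2 libraries per group. Blue marks the 38 genes that rose, red the 10 that fell and grey the 15 not called; Fcrl1 lies highest at 3.37 and Foxp3 lowest at -2.45.

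Receptors, adaptors and regulators of lymphocytes form the largest group with known immune roles, 11 genes in all. Ccr8, a chemokine receptor, had 114 and 116 normalised reads in knockout libraries, against 8.11 and 9.12 in control libraries. Cd70, the ligand of the co-stimulatory receptor CD27, had 574 and 563 against 99.4 and 84.1, and Apbb1ip, an adaptor that links Rap1 to integrins, had 3706 and 3574 against 749 and 759. The values of the groups are well apart, as the choice requires. With anti-IL-2, 7 of the 9 tested genes rose and 2 fell, against 31.4% and 28.9% of all tested genes.

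Fcrl1 and Ighd are best known from B cells, the first as a surface receptor and the second as the constant region of IgD. Fcrl1 had 802 and 828 reads with anti-IL-2 and 74.8 and 81.4 in untreated cells, a log2 fold change of 3.37 (SE 0.10, limma adjusted p = 1.10e-15). Ighd had 449 and 469 with anti-IL-2 and 66.5 and 63.9 in untreated cells (2.80, SE 0.12). Neither gene's groups overlapped there. Both genes were also higher in knockout (77.8 and 71.6 for Fcrl1, 76.8 and 77.4 for Ighd) than in control (11.2 and 12.2, then 21.3 and 15.2), as the choice required. The 8 B cell markers summed to 5135 and 5549 with anti-IL-2 and 4374 and 4352 in untreated cells, led by Ighm (4133 and 4452, against 2925 and 2927), which lies 2234 bases from Ighd. Of the others, H2-Ab1 fell to 19 and 24.9 with anti-IL-2, against 722 and 700 in untreated cells, Cd79b was not called (42.0 and 37.4 with anti-IL-2, 35.3 and 25.7 in untreated cells), and Ms4a1 and Pax5 had at most 1.91 in any blockade library. In the knockout experiment the sums were 3407 and 3417 in knockout, against 3214 and 3258 in control, where 3 of 5 tested markers fell and 1 rose. The part of B cells in these values was not tested.

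Trat1, which encodes an adaptor of the T cell receptor complex, had 700 and 594 reads with anti-IL-2 and 91.5 and 128 in untreated cells (log2 fold change 2.56, SE 0.13). Sh2b2, an SH2 adaptor of receptor tyrosine kinase signalling, had 222 and 221 against 49.9 and 36.0 (2.36, SE 0.16), and Ccr8 had 212 and 212 against 63.4 and 40.2 (2.05, SE 0.18). All 3 genes had anti-IL-2 libraries well above the untreated ones. Cd70 rose by 1.80 (SE 0.079) and Apbb1ip by 1.10 (SE 0.052).

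Foxp3, the transcription factor of regulatory T cells, went the other way. It had 8.59 and 9.59 reads with anti-IL-2 and 58.2 and 50.5 in untreated cells, a log2 fold change of -2.45 (SE 0.28, limma adjusted p = 4.06e-07), whereas knockout libraries held 43.3 and 49.0 against 4.06 and 5.07 in control. Foxp3 was thus lower with anti-IL-2, with no overlap of the groups, and higher in knockout, as the choice required. It passed the filter through the untreated libraries alone, the group in which it was higher. The summed CD4 T cell markers, which include Foxp3, were 1982 and 1947 with anti-IL-2 and 3650 and 3471 in untreated cells, most of it Ctla4, and Cd4 was at most 9.55 in any library. Cd40lg of the same list rose, with 427 and 455 with anti-IL-2 and 338 and 290 in untreated cells. Igsf23, an immunoglobulin superfamily gene, also fell, with 5.73 and 4.80 against 28.1 and 36.0 (-2.39, SE 0.36), while knockout libraries held 112 and 118 against 16.2 and 18.3 in control. Clec12a, a lectin receptor of myeloid cells, and Sh2d1b1, an adaptor of SLAM receptors in NK cells, stayed under the filter.

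Enzymes and ubiquitin or cell division genes made up 14 of the 94, all of them tested. Of these, 12 rose with anti-IL-2, 1 fell and 1 was not called, while 31.4% of all tested genes rose and 28.9% fell. Otud1, a deubiquitinase, had 1524 and 1511 reads in knockout libraries, against 117 and 114 in control libraries, a ratio of 13.1. Chst3, which adds sulphate to chondroitin, had 696 and 668 against 40.6 and 48.7, a ratio of 15. With anti-IL-2 Otud1 had 642 and 652, against 170 and 160 in untreated cells (log2 fold change 1.97, SE 0.090). Both enzymes moved the same way, since Chst3 had 499 and 544 with anti-IL-2 and 102 and 97.8 in untreated cells (2.37, SE 0.10). The groups of each gene were far apart in the blockade experiment, and in the knockout experiment too, where the choice required it.

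The class also holds enzymes of mitochondria and of fat and amino acid breakdown. Acadm, the medium-chain acyl-CoA dehydrogenase, had 1171 and 1164 reads in knockout and 240 and 258 in control, but only 490 and 469 with anti-IL-2 and 415 and 380 in untreated cells (log2 fold change 0.27, SE 0.083). Its call was lost with DESeq2, without the filter and without untreated replicate 2 (0.21). Acot6, an acyl-CoA thioesterase, rose by 1.42, Mtfp1, a mitochondrial fission gene, by 1.43, Prodh, proline dehydrogenase, by 0.94, and Kyat3, a kynurenine aminotransferase, by 0.84. Cdc25b, a phosphatase that activates cyclin-dependent kinases, had 1880 and 1758 reads in knockout and 331 and 331 in control, and rose by 0.47 (SE 0.067) with anti-IL-2. Ube2e2, a ubiquitin-conjugating enzyme, rose by 0.75, a call lost with DESeq2 and without the filter, and the glycosyltransferase-domain gene Glt28d2 by 1.21. Klhl22, a cullin adaptor, and Rpusd3 also rose, the transporter gene Abca5 was not called, and Pgpep1l, named for a pyroglutamyl peptidase, is taken up with the genes that fell.

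All 6 genes placed in the class of chromatin and transcription rose with anti-IL-2, against 31.4% of all tested genes. The class was made after the values were seen, and Foxp3, a transcription factor that fell, was placed with the lymphocyte genes. Hdac9, a class IIa histone deacetylase, had 256 and 258 reads with anti-IL-2 and 43.6 and 42.2 in untreated cells, a log2 fold change of 2.55 (SE 0.14); knockout libraries held 115 and 100 and control libraries 11.2 and 8.11. Sox12, an SRY-box transcription factor, had 423 and 452 against 245 and 199 (0.98, SE 0.10), and Zfp239, a zinc finger gene, 302 and 314 against 121 and 129 (1.30, SE 0.11). The control libraries of Zfp239 were uneven at 49.7 and 10.1, below 149 and 118 in knockout, and its blockade call was lost in the fit of all 8 libraries. The homeobox gene Six5 rose by 1.76, Coprs, a partner of the arginine methyltransferase PRMT5, by 1.84, and Cmss1 by 0.69.

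Lad1 stood out among the 4 genes of cell junctions and the cytoskeleton. It encodes ladinin, a protein of epithelial anchoring filaments, and had 14415 and 16657 reads with anti-IL-2 and 2873 and 2943 in untreated cells, a log2 fold change of 2.41 (SE 0.059, limma adjusted p = 7.54e-17). Knockout libraries held 2823 and 2830 and control libraries 511 and 478. This was the highest level of any of the 94 genes in the blockade experiment. Amotl1, an angiomotin family gene, Sh3pxd2b, a podosome adaptor, and Pcdhgc3, a clustered protocadherin, were not called. Pcdhgc3 had 53.5 and 70.0 with anti-IL-2, against 46.8 and 41.2 in untreated cells (adjusted p = 0.0559 in limma).

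Secreted and extracellular signals numbered 10, of which 7 were tested. Of these, 4 rose and 1 fell, against 31.4% and 28.9% of all tested genes. Wnt3, a Wnt ligand, had 384 and 424 reads with anti-IL-2 and 62.4 and 63.9 in untreated cells, a log2 fold change of 2.66 (SE 0.12); knockout libraries held 47.3 and 36.3 and control libraries 7.10 and 10.1. Wnt10a, another Wnt ligand, stayed under the filter with 11.5 and 7.67 against 5.20 and 3.09, and had 45.3 and 52.9 in knockout and 11.2 and 11.2 in control. Pdgfa, a chain of platelet-derived growth factor, had 38.2 and 34.5 against 17.7 and 17.5 (1.00, SE 0.27), a call lost with DESeq2. The Wnt inhibitor gene Apcdd1 rose by 1.28 (SE 0.42) and Fam20c, a kinase of secreted proteins, by 0.71 (SE 0.22), and both calls were lost with DESeq2 and without the filter. Apcdd1 was also lost without untreated replicate 1 (0.86) and Fam20c without anti-IL-2 replicate B (0.55). Ism1, which encodes the secreted protein isthmin, fell, with 8.59 and 6.71 against 27.0 and 25.7 (-1.67, SE 0.34), whereas knockout libraries held 126 and 139 and control libraries 24.3 and 27.4. Ostn, the gene of the bone and muscle hormone osteocrin, had 62.0 and 64.7 in knockout and was listed at 0 in both control libraries. The axon guidance gene Sema6d and the lipocalin gene Lcn10 were not called, and the netrin gene Ntn4 stayed under the filter.

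Among 8 channel, neuronal and sensory genes, 5 were tested, of which 3 rose and 1 fell, against 31.4% and 28.9% of all tested genes. Trpm1, a cation channel best known from retinal bipolar cells, had 275 and 269 reads with anti-IL-2 and 44.7 and 36.0 in untreated cells, a log2 fold change of 2.73 (SE 0.15); knockout libraries held 52.2 and 51.0 and control libraries 9.13 and 8.11. Nrgn, the calmodulin-binding protein neurogranin, had 3535 and 3926 against 935 and 1003 (1.94, SE 0.062), with 1508 and 1616 in knockout and 282 and 263 in control. Both genes had clearly separate groups in the blockade experiment, and in the knockout experiment too, where the choice required it. Ryr1, the calcium release channel of skeletal muscle, was not called (38.2 and 30.7 against 21.8 and 25.7), and the potassium channel subunit gene Kcns1 stayed under the filter, with 41.4 and 40.2 in knockout and 3.04 and 0 in control. The vomeronasal receptor gene Vmn2r96 fell, with 9.55 and 6.71 against 26.0 and 39.1 (-1.87, SE 0.34). The lysosomal channel gene Mcoln3 rose by 0.59 (SE 0.23), a call lost under 7 of 13 alternatives, among them those without anti-IL-2 replicate A (0.32) or untreated replicate 1 (0.21), and Phyhip and Xkr6 stayed under the filter.

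Of the 7 genes of cilia, motors and the germline, 4 were listed at 0 in both control libraries. Ak7, an adenylate kinase of motile cilia, had 106 and 99.0 reads in knockout, Dnah12, an axonemal dynein heavy chain, 105 and 90.2, Ankrd45, an ankyrin repeat gene, 69.9 and 71.6, and Tdrd9, a helicase of the germline piRNA pathway that silences retrotransposons, 39.4 and 40.2. M1ap, named for meiosis, had 269 and 290 in knockout, against 11.2 and 12.2 in control, a ratio of 22.2. None of the 5 tested genes rose with anti-IL-2, against 31.4% of all tested genes. Dnah12 had 22 and 19.2 with anti-IL-2 and 33.3 and 40.2 in untreated cells (log2 fold change -0.80, SE 0.26), a call lost with DESeq2, without the filter and without untreated replicate 2 (-0.67). It was thus present in untreated WT cells of one experiment and listed at 0 in the control cells of the other. Dnhd1, a dynein domain gene, fell by 1.10 (SE 0.30), a call lost with DESeq2 and without the filter. Ak7 had 15.3 and 17.3 against 9.35 and 9.27 and was not called (adjusted p = 0.0868 in limma), nor were M1ap (10.5 and 14.4 against 23.9 and 17.5) and Spats2. Tdrd9 and Ankrd45 were listed at 0 in all 4 blockade libraries.

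Among 7 other protein-coding genes, Fam160a1 was the most abundant, with 898 and 900 reads in knockout and 65.9 and 63.9 in control, a ratio of 13.7. It had 340 and 322 with anti-IL-2 and 64.4 and 62.8 in untreated cells (log2 fold change 2.36, SE 0.12). Lysmd2 rose by 1.86, while Mob3b and the mTOR complex 2 subunit gene Prr5 were not called. Wdfy4, known for cross-presentation in dendritic cells, had 68.0 and 55.9 in knockout, had 0 listed for each control library and stayed under the filter in the blockade experiment, as did Fam167a and Gm28042.

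**Figure D3:**
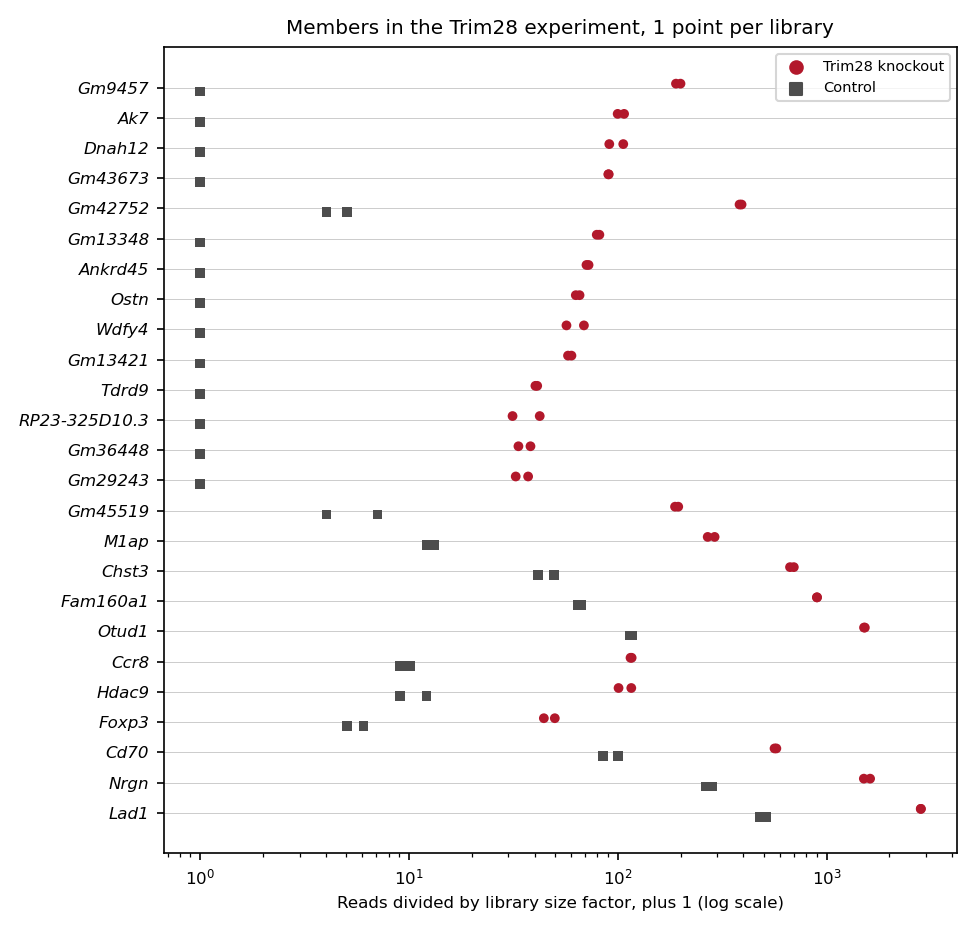
Normalised read count plus 1 (horizontal, log scale) of 25 of the 94 genes in the knockout experiment, 1 point per library: the 15 with the highest ratio and 10 others chosen after their values were seen. Red circles are knockout libraries and grey squares control libraries; squares at 1 are genes listed at 0, and in all 25 the circles lie to the right of the squares because the choice required it.

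The largest class held 27 non-coding RNAs, pseudogenes and gene models without a name, of which 7 were listed at 0 in control. The pseudogene Gm9457 had 199 and 189 reads in knockout and was listed at 0 in both control libraries, as were Gm43673 (89.6 and 89.2 in knockout), Gm13348 (80.7 and 78.4), Gm13421 (59.1 and 56.9), RP23-325D10.3 (41.4 and 30.4), Gm36448 (32.5 and 37.3) and Gm29243 (31.5 and 36.3). Gm42752 had 391 and 382 in knockout, against 3.04 and 4.05 in control, a ratio of 85.2, and Gm45519 had 194 and 187 against 3.04 and 6.08, a ratio of 34.4. In the blockade experiment 9 of the 27 were tested, of which 3 rose and 3 fell, near the 31.4% and 28.9% of all tested genes. Gm42752 had only 15.3 and 11.5 reads with anti-IL-2 and 6.24 and 3.09 in untreated cells, and its call (log2 fold change 1.39, SE 0.46) was lost with DESeq2, without the filter and without untreated replicate 2 (0.98). Gm43305 rose by 1.58 (SE 0.092), and the pseudogene Olfr1372-ps1 by 1.09 (SE 0.46), a call lost under 6 of 10 alternatives, among them those without untreated replicate 1 (0.96) or 2 (1.22). The 3 that fell were C230038L03Rik (9.55 and 5.75 against 21.8 and 27.8), 1110002J07Rik (18.1 and 11.5 against 40.5 and 25.7) and A930002I21Rik (77.3 and 59.5 against 89.4 and 91.7), the last a call lost under 7 of 13 alternatives, among them those without anti-IL-2 replicate B (-0.22) or untreated replicate 1 (-0.43) or 2 (-0.39). The call of 1110002J07Rik was lost with DESeq2, without the filter and without untreated replicate 1 (-0.79). Pgpep1l had 246 and 254 in knockout and 16.2 and 0 in control, so that 1 control library alone held reads, and 5.73 and 5.75 against 15.6 and 10.3 with blockade (-1.02, SE 0.43), a call lost under 4 of 10 alternatives.

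**Figure D4:**
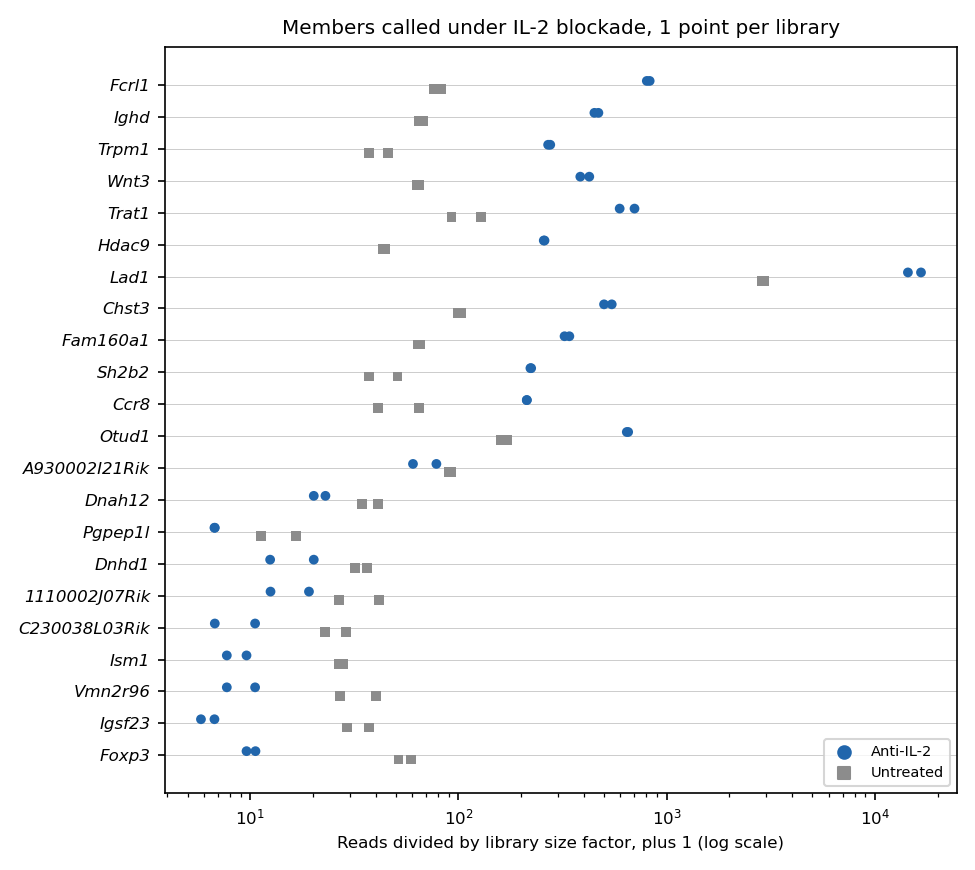
Normalised read count plus 1 (horizontal, log scale) in the blockade experiment, 1 point per library, for the 12 genes with the largest called increase and the 10 that fell. Blue circles are anti-IL-2 libraries and grey squares untreated libraries; no gene shown has overlapping groups, and the genes that fell all lie at low values, from 4.80 to 91.7 normalised reads.

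**Figure D5:**
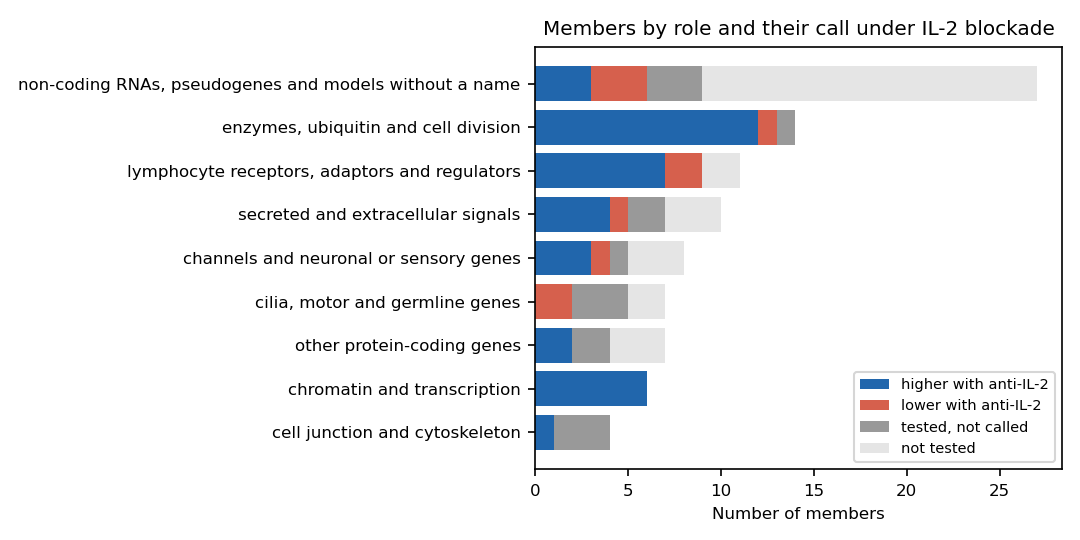
Number of the 94 genes in each class of role (horizontal) by their call with anti-IL-2: higher (blue), lower (red), tested and not called (dark grey) and not tested (light grey). The 14 enzymes and 6 chromatin genes were nearly all higher, whereas none of the 5 tested cilia, motor and germline genes was. Of all tested genes, 31.4% were higher. Foxp3, a transcription factor that fell, counts with the lymphocyte genes. The classes were made after the values were seen and were not tested.

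Both experiments held a group with intact Trim28 and no antibody against IL-2, so the level of the 94 genes could be read in each, although the experiments were scaled separately and the values across them were not tested. In CPM, the reads of a gene scaled to the same library total, the untreated level was at or above the control level of the knockout experiment in 60 of the 88 genes listed in both tables, and in 71 on the authors' separately scaled values. In CPM it was at or above the knockout level in 1, Wnt3, with 3.67 CPM in untreated, 3.16 in knockout and 0.64 in control cells. On the authors' values others reached it too, among them Foxp3 (means of 54.3 in untreated and 46.2 in knockout) and Lad1 (2908 and 2827). In CPM the knockout level was at least 2 times the untreated level in 73 of the 88. The choice took genes low in these control libraries and high in these knockout libraries, so such counts follow in part from it. Shares over all genes are not given beside them. With anti-IL-2, 17 genes reached at least the knockout level, among them Lad1 (952 CPM with anti-IL-2, 214 in knockout), Nrgn (229 and 118) and Fcrl1 (49.9 and 5.66). Others stayed far below it, such as Otud1 (39.7 with anti-IL-2, 115 in knockout), and 6 were listed at 0 in all 4 blockade libraries, namely Ankrd45, Tdrd9, Gm45319, Gm29253, Gm28042 and Gm15725.

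By name, 88 of the 94 genes matched the GENCODE M21 annotation on GRCm38, and they lay on 19 chromosomes, with 11 on chromosome 2 and 10 each on chromosomes 3 and 7. Protein-coding genes made up 66 of them, or 75.0%, against 80.7% of the 12265 matched genes with a knockout mean of at least 30. Processed transcripts made up 5.68% against 0.693%, lincRNAs 4.55% against 0.864%, and processed pseudogenes 3.41% against 14.5%. The exon length differed little, with a median of 3732 bases in the 88 and 3818 in those 12265 genes. Processed transcripts and lincRNAs were thus more frequent among the 88, and processed pseudogenes less frequent, by count and with no test.

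The 88 matched genes did not form large clusters, since 6 of them lay within 100 kb of another. Otud1 (chr2:19657752-19660583, plus strand) and the antisense-type gene Gm13348 (chr2:19634034-19636986, minus strand) lie 20766 bases apart, on opposite strands. Their knockout values were 1524 and 1511 for Otud1 and 80.7 and 78.4 for Gm13348, while the control libraries of Gm13348 were listed at 0 and its blockade libraries had at most 0.95. Otud1 was thus high with anti-IL-2 in libraries where Gm13348 was nearly or wholly without reads. Fam160a1 (chr3:85660061-85817291) and Glt28d2 (chr3:85869849-85887516), both on the minus strand, lie 52558 bases apart and both rose with anti-IL-2, while Gm37500 and Gm4349 on chromosome 3 lie 70099 bases apart and stayed under the filter. Gm37500 (37.4 and 39.2 in knockout, 2.03 and 2.03 in control) overlaps Setdb1 on the opposite strand.

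The nearest annotated neighbours that had reads and did not overlap were also examined, 88 in all. Of these, 11 had a knockout to control ratio of at least 2, or 12.5%, against 4.19% of all genes with reads, and 2 had a ratio of at most 1/2. Otud1 is one of the 11, as the neighbour of Gm13348. The median log2 ratio of the neighbours was 0.25, against 0.030 in all tested genes. Map4k1, a kinase gene 65 bases from Ryr1, had 1900 and 1870 in knockout, against 679 and 663 in control, and Cenpb, next to Cdc25b, had 1032 and 1103 against 333 and 352. Mcoln2, next to its relative Mcoln3, had 746 and 798 against 250 and 216. Sh2d1b2 and Vmn2r-ps117 are relatives of Sh2d1b1 and Vmn2r96, and reads of such close copies may be shared. The 2 neighbours at a ratio of at most 1/2 were Twist1, next to Hdac9, with 359 and 345 against 836 and 877, and Gm16157, next to Pgpep1l.

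Overlap with other genes limits some of the 94, since the counting is not stated to use strand. Among the 88, 19 overlapped another gene with reads, or 21.6%, against 27.2% of all genes with reads. Gm28042 overlaps Jmjd7 and Pla2g4b on the same strand and had 95.5 and 94.1 in knockout and 14.2 and 1.01 in control, while Jmjd7 had 0 and 8.82 in knockout and 66.9 and 62.8 in control. Cmss1 had 609 and 620 in knockout and 146 and 124 in control, while Filip1l, which overlaps it on the other strand, had 143 and 144 against 389 and 383. Pcdhgb7, which overlaps Pcdhgc3 on the same strand, had 3.94 and 7.84 in knockout and 21.3 and 17.2 in control. Abcb6, which overlaps Gm29253 on the same strand, had 62.0 and 93.1 against 104 and 99.3. In these cases the overlapping genes differed in opposite directions between knockout and control, which did not hold for every overlap. Gm10461 overlaps Yes1 on the opposite strand, and C230038L03Rik overlaps Nars2 (405 and 411 in knockout, 111 and 95.3 in control). How reads were divided between such genes cannot be told apart from their expression here.

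A list of 50 genes of the TRIM28 pathway, none of them among the 94, was read in the knockout experiment, where it could be tested. All 48 listed genes were tested, of which 33 rose in knockout (32.9% of all tested genes rose), 7 fell (28.2% of all) and 8 were not called, with a median log2 fold change of 0.32 against 0.031 in all genes. Setdb1, the methyltransferase that TRIM28 recruits, had 6349 and 6245 in knockout and 945 and 906 in control. It met the 3 conditions itself before it was left out by name, so its values are a description, and 32 of the other 47 genes rose. The imprint-guarding zinc finger gene Zfp445 rose by 0.89, and genes of DNA methylation upkeep rose too, Uhrf1 by 0.80, Dnmt1 by 0.69 and Hells by 0.58. Trim28 itself was lower (-3.30, SE 0.053), as were Trim66 (-1.39), Atf7ip, a SETDB1 partner (-0.90), the methyltransferase gene Dnmt3a (-0.24) and Smchd1 (-0.23). With anti-IL-2, 31 of 46 tested genes of the list rose and 3 fell, against 31.4% and 28.9% of all tested genes. Uhrf1 rose by 1.11 there, Dnmt1 by 1.17 and Hells by 1.25, each more than in knockout, while Zfp445 was not called. Trim28 had 7926 and 8528 with anti-IL-2, against 5774 and 5920 in untreated cells.

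Most other gene lists held few or none of the 94. None of the 94 was in the lists of 44 imprinted genes, 119 kinases or 67 interferon-stimulated genes found in the knockout table, and 1, Ccr8, among 46 IL-2 and STAT5 targets. Snhg14, known as an imprinted transcript, is one of the 94 and was not in the imprinted list. The 9 genes left out by name, among them Yes1, Gbp2b and Tnfsf10, could not count in any list. Only 0.816% of genes with a knockout mean of at least 30 met the conditions, so lists of this size can hold few. No lack is therefore read from these counts. The germline list of 56 genes held 2, Tdrd9 and M1ap. Of its other 12 tested genes, 1 rose in knockout (8.33%, against 32.9% of all tested genes) and 8 fell (66.7%, against 28.2%). Cytokines and growth factors held 2 (Pdgfa and Wnt10a), transcription factors 2 (Foxp3 and Sox12), ion channels 3 (Kcns1, Trpm1 and Ryr1), and ubiquitin and TRIM genes 2 (Otud1 and Ube2e2). Of 443 zinc finger genes by symbol, 1, Zfp239, was among the 94. Of the other 341 tested, 115 rose in knockout and 81 fell, or 33.7% and 23.8%, against 32.9% and 28.2% of all tested genes. Gene models named Gm or Rik supplied 21 of the 94, out of 24484 listed.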

How the data were processed

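The values the authors deposited are a normalised signal, gene read counts divided by a size factor within each experiment; the submitters' processing notes list mm10, DESeq2, StringTie 2.1.4, HISAT2 2.2.1 and Trim Galore 0.4.4, and the read counter, annotation and filters are not given in the sources used here. Every table column of a library was used, and the authors' own fold changes were not. Dividing each library by its value of 1 read gave whole reads for 100% of values within a tolerance of 0.001. The files hold such scaled values, so limma 3.58.1 in R 4.3.3 was the test: log2(value + 1), which understates the change of low genes, genes reaching 10 in 2 or more libraries, a mean-variance trend and Benjamini-Hochberg adjustment over all tested genes, called under 0.05. The limma step was tested on simulated data. EdgeR 4.0.16 on the recovered reads called 4258 genes higher and 4151 lower with anti-IL-2, and 4548 higher and 4571 lower in knockout. With 2 libraries a group, an exact permutation test could not go below 0.333. The anti-IL-2 columns carry no replicate numbers and are called A and B.

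The genes, lists and tests were chosen with earlier results of these data known. Genes were named by rule: Trim28, the 15 highest ratios, genes listed at 0 in control, the 12 largest calls per direction with anti-IL-2, list members, genes within 100 kb of each other, genes at the thresholds, and the 5 TRIM28 pathway genes per direction with the smallest adjusted p; other names, and the classes of role, were chosen after their values were seen. Alternatives were pseudocounts of 0.5 and 5, no filter and a filter at 30, TMM and upper-quartile rescaling, edgeR, DESeq2 1.42.0, a fit of all 8 libraries, a replicate block and leaving out each library.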

Additional observations from a re-analysis of the deposited data

How the results depend on the processing

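No gene called in the reported fit or in an alternative changed its direction there; genes not called could, such as Abca5 (-0.010, and 0.24 without untreated replicate 2). The number of genes that rose with anti-IL-2, 38, ranged from 30 (DESeq2) to 39 over all alternatives and from 34 to 36 with a library left out, and 29 of the 38 were called under every alternative that tested them. The number that fell, 10, was 5 without the filter, 4 with a filter at 30, 5 with DESeq2 and 2 to 11 with a library left out; 5 of the 10 were called under every alternative that tested them, and the filter at 30 and each left-out untreated library test fewer genes by construction. In the TRIM28 pathway list, 33 rose in knockout (27 to 34 over the alternatives), and 7 fell (4 without the filter, 5 to 7 with a library left out). With the replicate block 32 rose and 7 fell; equally numbered libraries deviated together by a correlation of only 0.013 over 15415 genes, so the numbers are not shown to pair. No paired analysis was possible for anti-IL-2 because its columns carry no replicate numbers. Over all genes, DESeq2 called 2846 higher in knockout, against 5065 in limma, and 2660 lower, against 4344; leaving out knockout replicate 1 or 2 left 3336 or 3361 higher. The 71 genes at or above the control level in untreated cells were 60 in CPM, an alternative chosen after seeing the data. The count of 94 chosen genes was 49 at a ratio of 6, 36 at a ratio of 8, 134 at a ratio of 3 and 96 to 102 with a library left out. Depth limits the genes with under 10 reads in control, where a few reads move the ratio.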
